A study of Mus musculus with 6 samples.

Results

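Krüppel-like factors (Klf) are transcription factors with 3 closely similar zinc fingers at the end of the protein, which bind GC-rich and CACCC sequences. Klf4 is one of the factors used to reprogram somatic cells. The 10 genes described here are its relatives Klf2, Klf3, Klf5, Klf6, Klf7, Klf9, Klf10, Klf12, Klf13 and Klf15, chosen by name from 17 Klf genes among the 20325 genes listed. All 10 were found and all 10 passed the filter on low counts, which left 13460 genes for testing. Of the 10, 8 had at least 10 expected counts in all 6 libraries, the exceptions being Klf5 and Klf7.

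Nanog+E-cadherin+ cells (n = 3 libraries) were set against Nanog+E-cadherin- cells (n = 3 libraries), which asks how Nanog-expressing cells with and without the epithelial adhesion protein E-cadherin differ partway through reprogramming. Both populations came from neural stem cells of mice at postnatal day 4, of mixed 129/Black 6 strain. The mice were homozygous at ColA1 for the Stemcca allele, from which doxycycline induces Oct4, Sox2, c-Myc and Klf4, and heterozygous at Rosa26 for rtta, the transactivator that doxycycline switches on. Cells of both populations were treated with doxycycline until day 7, fixed, stained for both proteins, sorted, reversed from crosslinking and used for bulk RNA-seq. The labels do not say whether replicates came from separate animals or cultures, and the p-values therefore speak only of the spread among these 6 libraries, which may be technical.

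The family falls into groups by the partners that its members recruit. Klf2, Klf5, Klf6 and Klf7 belong with Klf4 to a group that mostly activates transcription and works with acetyltransferases. Klf3 and Klf12 recruit the corepressor CtBP, as Klf8 does outside the 10, and Klf9, Klf10 and Klf13 recruit the corepressor Sin3. In mouse embryonic stem cells Klf2, Klf4 and Klf5 can replace one another in part to sustain self-renewal and share many bound genes, while Klf9 and Klf15 are known as targets of the glucocorticoid receptor. Klf2, Klf6 and Klf10 can also be induced as early response genes, Klf10 by TGF-beta.

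Promoters of 8 of the 10 genes were matched by symbol in RefSeq on GRCm38.p6, each as the 250 bases before and the 50 bases after an annotated start. The 4 shown belong to the genes on which the results turn: Klf15 and Klf12, whose 2 populations stood furthest apart, Klf3, the most abundant, and Klf2, which differed most between the libraries numbered 1 and 2. Capitals mark the CACCC box and the GC box, GGGCGG, each searched on both strands, with overlapping matches counted separately. The regions are chr6:90462326-90462625 on the plus strand for Klf15, chr14:100149747-100150046 on the minus strand for Klf12, chr5:64803271-64803570 on the plus strand for Klf3 and chr8:72318812-72319111 on the plus strand for Klf2.
Klf15: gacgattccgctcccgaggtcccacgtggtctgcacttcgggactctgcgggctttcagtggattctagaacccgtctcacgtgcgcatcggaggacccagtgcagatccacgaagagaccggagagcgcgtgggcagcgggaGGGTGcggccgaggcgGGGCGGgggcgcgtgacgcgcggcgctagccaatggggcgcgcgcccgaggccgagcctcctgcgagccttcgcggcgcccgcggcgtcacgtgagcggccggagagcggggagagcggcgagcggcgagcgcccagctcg
Klf12: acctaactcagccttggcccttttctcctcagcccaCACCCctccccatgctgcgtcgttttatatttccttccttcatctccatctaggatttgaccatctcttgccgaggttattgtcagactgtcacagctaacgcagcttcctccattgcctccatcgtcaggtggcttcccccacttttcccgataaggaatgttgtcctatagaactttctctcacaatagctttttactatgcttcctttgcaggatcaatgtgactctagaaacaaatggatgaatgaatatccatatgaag
Klf3: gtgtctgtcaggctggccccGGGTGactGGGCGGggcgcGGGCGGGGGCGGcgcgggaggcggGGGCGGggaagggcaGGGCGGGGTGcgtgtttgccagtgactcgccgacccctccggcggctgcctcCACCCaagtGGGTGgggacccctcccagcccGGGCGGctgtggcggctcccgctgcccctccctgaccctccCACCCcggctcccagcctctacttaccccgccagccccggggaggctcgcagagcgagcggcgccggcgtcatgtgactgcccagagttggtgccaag
Klf2: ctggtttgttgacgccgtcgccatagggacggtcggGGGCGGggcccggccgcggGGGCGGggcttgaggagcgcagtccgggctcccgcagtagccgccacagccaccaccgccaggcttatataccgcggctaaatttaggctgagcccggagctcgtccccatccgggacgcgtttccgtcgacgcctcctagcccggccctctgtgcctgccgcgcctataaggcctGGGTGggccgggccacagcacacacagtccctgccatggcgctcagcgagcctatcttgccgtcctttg

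CACCC or its reverse complement stood in 7 of the 8 matched promoters, against 57.5% of 32851 promoters of this length, and GGGCGG or its reverse complement stood in 6 of the 8, against 35.7%. The Klf3 window held 5 matches to CACCC and 6 to GGGCGG. At least 5 matches to CACCC occurred in 1.02% of all promoters and at least 6 to GGGCGG in 1.35%. Klf15 and Klf12 held 1 match each to CACCC, while Klf12 had none to GGGCGG and was the least GC-rich of the 8 at 45.7%, against a median of 52.7% over all promoters. These matches describe letters in a window and are not binding sites.

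The libraries held between 8851110 and 39630916 expected counts in all. Cdh1, the gene of E-cadherin, stood at 104, 142.6 and 139 CPM (counts scaled to library size with TMM, edgeR's correction for library composition) in Nanog+E-cadherin+ replicates 1 to 3, against 16.6, 20.3 and 15.4 CPM in Nanog+E-cadherin- replicates 1 to 3, so the RNA follows the sort. The neural stem cell markers Nes and Sox1 were detected in every library. Of 7 microglial and macrophage genes, Tyrobp was at 0 in every library and Aif1 at 0.052 CPM or less, while Cd68 stood at 4.34 to 11.4 CPM. Of 7 endothelial genes, Emcn stood at 0.081 CPM or less, while Tek reached 48.1 CPM and Kdr 23.6 CPM. Nanog+E-cadherin- replicates 2 and 3 stood apart in holding sequence of genes that neural cells are not expected to express. Summed over 1119 olfactory receptor genes, the libraries held 18.9, 92.9 and 49.9 CPM of library totals in Nanog+E-cadherin+ replicates 1 to 3, against 19.5, 878 and 585 CPM in Nanog+E-cadherin- replicates 1 to 3.

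**Figure D1:**
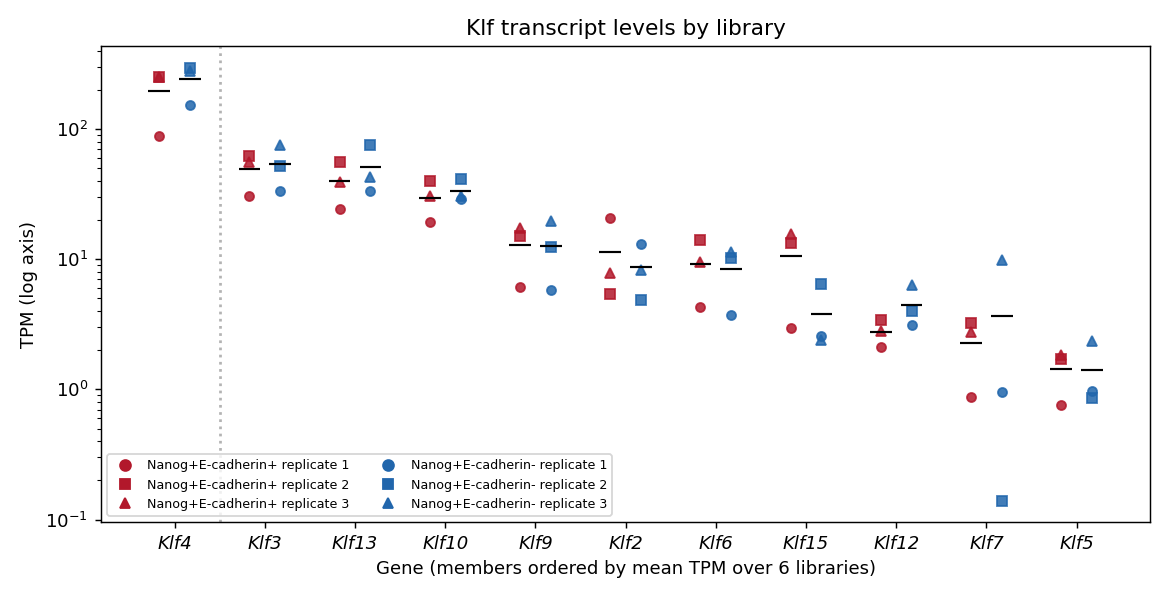
Level of each gene (TPM, log axis) in each of the 6 libraries, with Nanog+E-cadherin+ in red on the left and Nanog+E-cadherin- in blue on the right of each gene, and horizontal lines at the means of 3 libraries. Klf4 stands above every other gene in every library, Klf3, Klf13 and Klf10 are next by mean, and the 2 populations overlap for every gene on this scale.

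Levels were compared between genes in TPM, which are scaled by transcript length. The order by mean TPM over the 6 libraries was Klf3 (51.6), Klf13 (45.2), Klf10 (31.7), Klf9 (12.7), Klf2 (10.03), Klf6 (8.84), Klf15 (7.19), Klf12 (3.63), Klf7 (2.96) and Klf5 (1.42). Klf13 exceeded Klf10 and Klf10 exceeded Klf9 in all 6 libraries. Neighbours elsewhere in the order changed places between libraries: Klf3 exceeded Klf13 in 4 of 6, Klf9 exceeded Klf2 in 4 of 6, Klf2 exceeded Klf6 in 2 of 6 and Klf7 exceeded Klf5 in 4 of 6. Klf3, Klf13 and Klf10 together made up 66.2% to 75.9% of the summed TPM of the 10 genes in 5 of the libraries and 81.3% in Nanog+E-cadherin- replicate 2.

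The 10 genes summed to 112, 214 and 183 TPM in Nanog+E-cadherin+ replicates 1 to 3, against 125, 208 and 209 TPM in Nanog+E-cadherin- replicates 1 to 3. The means were 169.6 ± 52.3 TPM and 180.8 ± 47.9 TPM (SD, n = 3 each), a gap smaller than either SD. Klf4 alone stood at 88.6, 251 and 250.4 TPM in Nanog+E-cadherin+ cells, against 153, 296 and 280.4 TPM in Nanog+E-cadherin- cells. Reads of the induced Klf4 transgene may be counted in these values along with those of the endogenous gene. The 3 genes that recruit Sin3 summed to 82.3 ± 30.8 TPM in Nanog+E-cadherin+ cells and 96.8 ± 30.9 TPM in Nanog+E-cadherin- cells, and Klf3 with Klf12 to 52.4 ± 17.4 TPM and 57.98 ± 22.6 TPM (SD, n = 3 each).

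No gene of the 10 passed in edgeR's quasi-likelihood fit, where p-values were adjusted over all genes (Benjamini-Hochberg) and values under 0.05 passed. The background was the same, with 0% of all 13460 genes called with group as the only term. One of the 10, Klf15, had an unadjusted p under 0.05, against 2.67% of all genes. With the replicate number as a block, 0.305% of all genes were called and again none of the 10, while Klf15 alone had an unadjusted p under 0.05, against 10.7% of all genes. DESeq2's Wald test and limma-voom, each with group only and with the block, also called none of the 10. With group only, DESeq2 gave no adjusted p for 2 of them and 1 had an unadjusted p under 0.05, while limma-voom gave 0 below that p. With the block, both gave 1. The log2 fold changes, always Nanog+E-cadherin+ over Nanog+E-cadherin-, were above 0 for 5 genes and below 0 for 5. Their median was 0.06, against -0.01 over all genes.

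**Figure D2:**
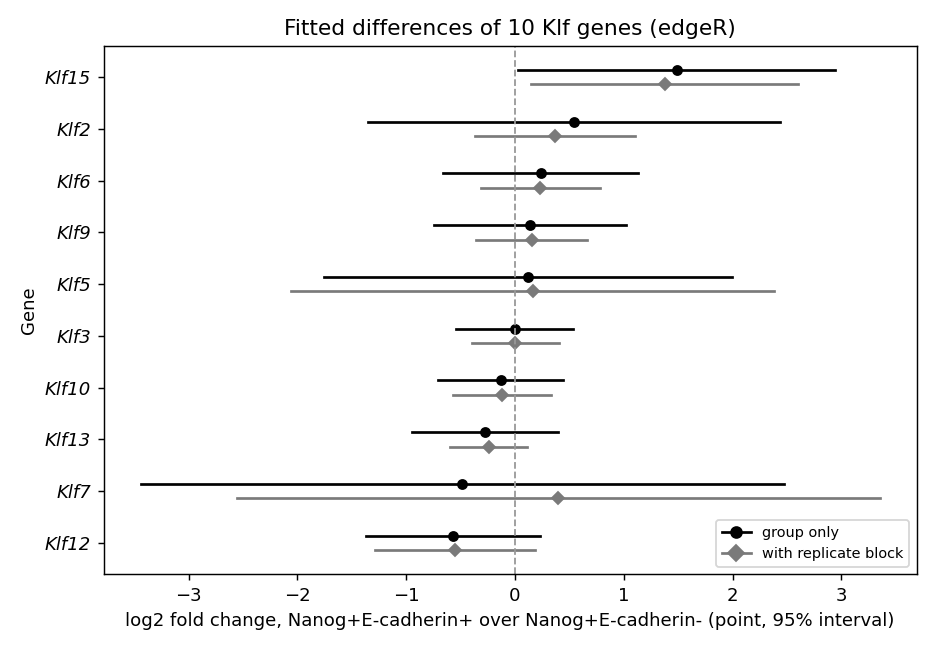
Log2 fold change of each gene with its 95% interval from edgeR's quasi-likelihood fits, with group as the only term (black circles) and with the replicate number as a block (grey diamonds), ordered by the group-only value. Klf15 lies at 1.49 with an interval of 0.03 to 2.94 before adjustment, and the intervals of the other 9 genes include 0 in both fits.

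Klf15, a zinc-finger factor known for metabolic control in liver and muscle and outside the partner groups above, showed the largest difference of the 10. It stood at 5.23, 14.2 and 18.2 CPM in Nanog+E-cadherin+ replicates 1 to 3, against 4.17, 6.84 and 2.41 CPM in Nanog+E-cadherin- replicates 1 to 3. The populations overlapped, since Nanog+E-cadherin+ replicate 1 lay below Nanog+E-cadherin- replicate 2, yet every Nanog+E-cadherin+ library exceeded the one of equal number. These levels rest on 95, 188 and 363 expected counts in Nanog+E-cadherin+ cells, against 148, 79.3 and 23 in Nanog+E-cadherin- cells.

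The log2 fold change of Klf15 was 1.49 ± 0.62 (SE, n = 3 each) with a 95% interval of 0.03 to 2.94 and an adjusted p of 1 (rounded) in edgeR's test. With the replicate block it was 1.38 ± 0.54 (SE), interval 0.15 to 2.60, and the adjusted p was 0.416 in edgeR's test. By exact permutation of log2 CPM (two-sided) p was 0.2, where 3 libraries against 3 cannot go below 0.1. The size of the difference varied between pairs, with a log2 ratio of 0.33 in the libraries numbered 1, 1.06 in those numbered 2 and 2.91 in those numbered 3. Without both libraries numbered 3 the blocked log2 fold change was 0.70, and without Nanog+E-cadherin- replicates 2 and 3 the group-only value was 1.58. In that last fit the one Nanog+E-cadherin- library left is assumed to vary like the other population.

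Astrocyte genes, which are expected in cultures of neural stem cells, had summed levels of 105, 448 and 1046 CPM of library totals in Nanog+E-cadherin+ replicates 1 to 3, against 90.3, 415 and 711 CPM in Nanog+E-cadherin- replicates 1 to 3. All 5 of 5 (Gfap, Aqp4, Aldh1l1, S100b and Aldoc) had counts above 0 in every library. All 5 fitted higher, as did 6522 of all 13460 genes, and 0 of the 5 passed with p adjusted over all genes. Klf15 was low in Nanog+E-cadherin- replicate 3, where this sum was high, and, that library aside, had its lowest levels in the libraries numbered 1, as the sum did. S100b was lowest in Nanog+E-cadherin- replicate 3, at 0.113 CPM, which is below the 0.339 CPM that 3 counts come to in that library. In bulk samples fewer cells of a type and less RNA per cell cannot be told apart, and the part of astrocyte content in the Klf15 values was not tested.

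The genes whose log2 CPM over the 6 libraries was most like that of Klf15, among 11095 genes with a mean of at least 5 CPM, were the sorting nexin Snx7 (Pearson r = 0.99), Tmem51 (0.99, rounded) and the endoplasmic reticulum prolyl isomerase Fkbp9 (0.98). Snx7 stood at 17.6, 28.1 and 28.6 CPM in Nanog+E-cadherin+ replicates 1 to 3, against 14.3, 18.3 and 12.8 CPM in Nanog+E-cadherin- replicates 1 to 3. With 6 libraries and so many genes compared, such values are a description only.

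Klf12, a repressor that recruits CtBP, was the one gene of the 10 whose populations did not overlap in CPM. It stood at 9.36, 9.23 and 8.31 CPM in Nanog+E-cadherin+ replicates 1 to 3, against 12.9, 10.9 and 16.2 CPM in Nanog+E-cadherin- replicates 1 to 3. All Nanog+E-cadherin+ libraries thus lay below all Nanog+E-cadherin- libraries, as they did for 3.25% of all genes tested, while 3.74% stood in the opposite order, together 6.99%. In the authors' TPM the populations overlapped, since Nanog+E-cadherin+ replicate 2 stood at 3.41 TPM and Nanog+E-cadherin- replicate 1 at 3.11 TPM.

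The log2 fold change of Klf12 was -0.57 ± 0.34 (SE, n = 3 each), interval -1.37 to 0.23, with an unadjusted p of 0.139 and an adjusted p of 1 (rounded) in edgeR's test. With the block it was -0.55 ± 0.32 (SE), interval -1.29 to 0.18, and the adjusted p was 0.586 in edgeR's test. By exact permutation (two-sided) p was 0.1, the smallest that 3 against 3 allow. The log2 ratios were -0.46, -0.24 and -0.96 in the libraries numbered 1, 2 and 3. Without Nanog+E-cadherin- replicates 2 and 3, the libraries rich in olfactory receptor sequence, the log2 fold change was -0.52. In that fit the only Nanog+E-cadherin- library left is assumed to vary like the other population. The part of such sequence in the Klf12 values was not tested.

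The genes most like Klf12 over the 6 libraries were 4931428F04Rik (r = 0.99), the decapping factor gene Dcp1b (0.98) and Rnft2 (0.97). Klf12 and Klf15 themselves ran in opposite directions, with r = -0.89 over 6 libraries that share group and replicate number. Klf3, the other of the 10 that recruits CtBP, had r = 0.30 with Klf12. No other of the 10 had a higher r with Klf12, and Klf7 was close at 0.29.

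**Figure D3:**
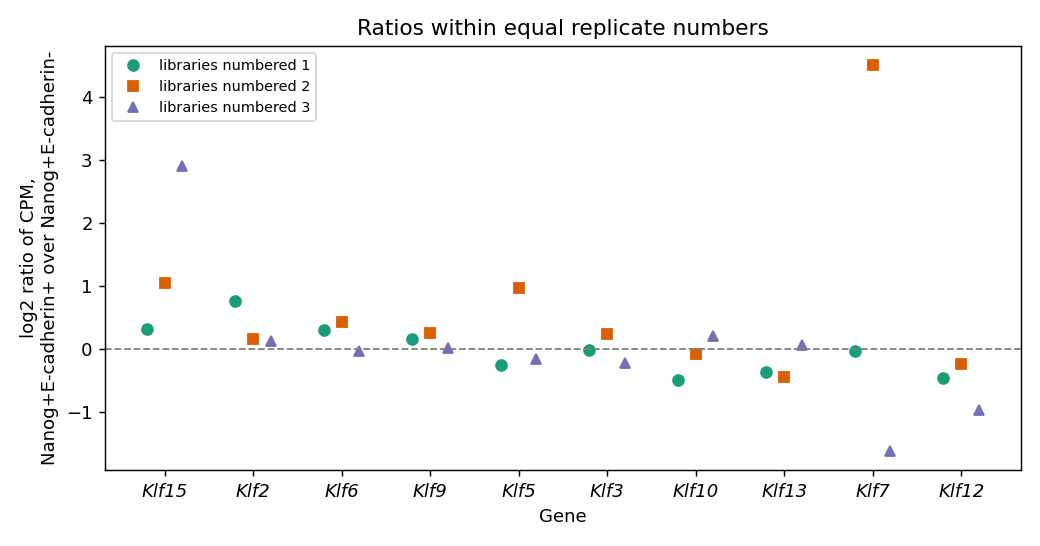
Log2 ratio of CPM, Nanog+E-cadherin+ over Nanog+E-cadherin-, within the libraries numbered 1, 2 and 3, for each of the 10 genes. The 3 ratios of Klf15, Klf2 and Klf9 lie above 0 and those of Klf12 below 0, and Klf7 spreads from -1.61 to 4.51.

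In the libraries of equal number, 3 genes (Klf2, Klf9 and Klf15) were higher in Nanog+E-cadherin+ cells in all 3 pairs, against 18.9% of all genes tested, and Klf12 was lower in all 3 pairs, against 17.3%. The other 6 genes differed in direction between pairs. For Klf9 the log2 ratios were 0.17, 0.26 and 0.03, which is small beside its range over replicate numbers.

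Klf2, an activator that sustains naive pluripotency and endothelial quiescence, varied with replicate number far more than with the sort. It stood at 28.5, 4.54 and 7.26 CPM in Nanog+E-cadherin+ replicates 1 to 3, against 16.8, 4.07 and 6.61 CPM in Nanog+E-cadherin- replicates 1 to 3. Both libraries numbered 1 were above the other 4, and the populations overlapped. The log2 fold change was 0.54 ± 0.81 (SE, n = 3 each), interval -1.35 to 2.43, and with the block 0.37 ± 0.32 (SE), interval -0.37 to 1.10, with adjusted p of 1 (rounded) and 0.714 in edgeR's test. Leaving out Nanog+E-cadherin+ replicate 1 gave a group-only value of -0.64 and leaving out Nanog+E-cadherin- replicate 1 gave 1.35, so both libraries decide its size and the first its sign.

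Klf2 reached 23.3% of the Klf4 TPM in Nanog+E-cadherin+ replicate 1 and 8.54% in Nanog+E-cadherin- replicate 1, and between 1.63% and 3.15% in the other 4 libraries. Klf4 was itself lowest in those 2 libraries, at 88.6 and 153 TPM, so the ratio varied more than Klf2 did. Klf2 stood at 20.7 and 13.1 TPM there, and between 4.82 and 8.31 TPM in the other 4. Endothelial genes summed to 12.9, 61.2 and 64.3 CPM of library totals in Nanog+E-cadherin+ replicates 1 to 3, against 8.33, 41.4 and 40.3 CPM in Nanog+E-cadherin- replicates 1 to 3. That sum was lowest in the libraries numbered 1, although Pecam1, one of the 7, was higher in Nanog+E-cadherin+ replicate 1 (2.29 CPM) than in Nanog+E-cadherin+ replicates 2 and 3 (1.34 and 1.09 CPM). The sum of the neuronal genes was highest in the libraries numbered 1, at 739, 199.8 and 144 CPM in Nanog+E-cadherin+ cells, against 992, 407 and 214 CPM in Nanog+E-cadherin- cells, with Tubb3 and Stmn2 as its main components. Rbfox3 and Snap25 were instead highest in Nanog+E-cadherin- replicate 2, at 3.42 and 8.96 CPM, and Dcx in Nanog+E-cadherin+ replicate 1 (6.78 CPM) lay below 4 other libraries. The part of endothelial or neuronal content in the Klf2 values was not tested. All 7 of the neuronal genes found were above 0 in every library except Rbfox3, which was at 0 in Nanog+E-cadherin- replicate 3.

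Klf5, the second of the genes that can stand in for Klf4 in mouse embryonic stem cells, was at the edge of detection in both populations. It stood at 0.991, 1.36 and 1.60 CPM in Nanog+E-cadherin+ replicates 1 to 3, against 1.18, 0.693 and 1.78 CPM in Nanog+E-cadherin- replicates 1 to 3, from 8 to 42 expected counts. The groups overlapped, and its log2 fold change of 0.12 ± 0.80 (SE, n = 3 each) had an interval of -1.76 to 1.99. Differences in either direction within those limits are thus compatible with this fit. Relative to Klf4 its TPM was between 0.290% and 0.858% in all 6 libraries.

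Klf6, an activator known from injury responses and as a tumour suppressor, stood at 13.99, 27.6 and 20.7 CPM in Nanog+E-cadherin+ replicates 1 to 3, against 11.3, 20.5 and 21.2 CPM in Nanog+E-cadherin- replicates 1 to 3. Both libraries numbered 1 were lowest and the populations overlapped, with a log2 fold change of 0.24 ± 0.38 (SE, n = 3 each), interval -0.66 to 1.13.

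Klf7, which takes part in neuronal differentiation and axon growth, had 16, 26 and 37 expected counts in Nanog+E-cadherin+ replicates 1 to 3, against 32, 1 and 54 in Nanog+E-cadherin- replicates 1 to 3. Its levels were 0.881, 1.97 and 1.85 CPM in Nanog+E-cadherin+ cells, against 0.900, 0.0866 and 5.67 CPM in Nanog+E-cadherin- cells, so the lowest and the highest value both fell among the Nanog+E-cadherin- libraries, in the 2 that were rich in olfactory receptor sequence. The ratio of CPM in the libraries numbered 2 was 22.7 with an exact 95% counting interval of 3.73 to 932, while in those numbered 3 it was 0.327 with an interval of 0.209 to 0.506. Those intervals cover counting error only. The log2 fold change of -0.48 ± 1.26 (SE, n = 3 each) had an interval of -3.44 to 2.47, and with the block it was 0.40 (interval -2.56 to 3.35), so its sign depends on the model. Leaving out Nanog+E-cadherin- replicate 3 gave 1.57 and leaving out Nanog+E-cadherin- replicate 2 gave -1.04.

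Klf3, a repressor of adipogenic and erythroid genes that recruits CtBP, was the most abundant of the 10 and the most alike in both populations. It stood at 54.0, 67.1 and 66.1 CPM in Nanog+E-cadherin+ replicates 1 to 3, against 54.7, 56.7 and 76.5 CPM in Nanog+E-cadherin- replicates 1 to 3. The populations overlapped. Its log2 fold change was -0.004 ± 0.23 (SE, n = 3 each), interval -0.54 to 0.53, and with the block 0.004 ± 0.18 (SE), interval -0.39 to 0.40.

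Among the genes that recruit Sin3, Klf13, which is known from T cells and heart development, had the highest TPM. It stood at 120.1, 169 and 129.8 CPM in Nanog+E-cadherin+ replicates 1 to 3, against 154, 230.0 and 123.2 CPM in Nanog+E-cadherin- replicates 1 to 3. The highest library was Nanog+E-cadherin- replicate 2 and the lowest Nanog+E-cadherin+ replicate 1, with overlap between. In the group-only fit the log2 fold change was -0.28 ± 0.29 (SE, n = 3 each), interval -0.95 to 0.40, and 0.01 when Nanog+E-cadherin- replicate 2 was left out.

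Klf10, which represses growth downstream of TGF-beta, stood at 45.0, 56.4 and 47.8 CPM in Nanog+E-cadherin+ replicates 1 to 3, against 62.95, 59.3 and 41.2 CPM in Nanog+E-cadherin- replicates 1 to 3. The Nanog+E-cadherin+ values lay inside the range of the other population, and the log2 fold change was -0.13 ± 0.24 (SE, n = 3 each), interval -0.70 to 0.44.

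Klf9, which is induced by thyroid and glucocorticoid hormones and takes part in the maturation of neurons, stood at 15.4, 23.1 and 28.9 CPM in Nanog+E-cadherin+ replicates 1 to 3, against 13.7, 19.2 and 28.3 CPM in Nanog+E-cadherin- replicates 1 to 3. The libraries of equal number lay close together, and both numbered 1 were lowest. Its log2 fold change was 0.14 ± 0.38 (SE, n = 3 each), interval -0.74 to 1.02, and the block changed it to 0.15 ± 0.23 (SE), interval -0.36 to 0.66.

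**Figure D4:**
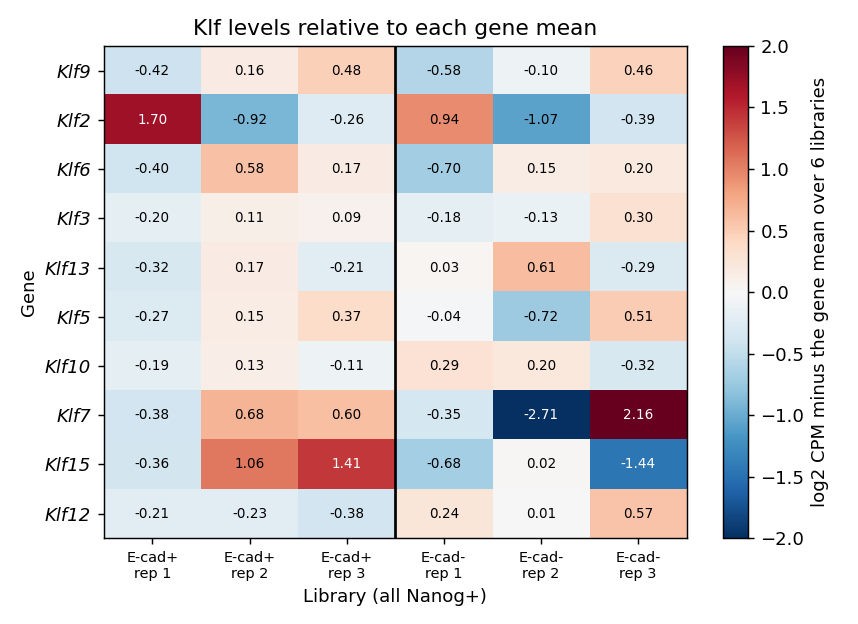
Log2 CPM of each gene minus its mean over the 6 libraries, with Nanog+E-cadherin+ libraries left of the black line and Nanog+E-cadherin- libraries right of it, and genes ordered by the share of their variation that follows replicate number. The colour scale ends at -2 and 2. Klf9, Klf2 and Klf6 at the top look alike in libraries of equal number, while Klf15 and Klf12 at the bottom differ across the line.

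Replicate number, and not the sort, carried most of the variation of this family. Divided by sums of squares of log2 CPM, replicate number took a median of 66.6% and the sort 5.38% over the 10 genes, against 64.6% and 9.36% over all genes tested, so the family did not stand out in this. Replicate number took 95.1% for Klf9, 94.9% for Klf2 and 87.2% for Klf6, and over 50% for 7 of the 10 genes. The median over all genes was itself over 50%. Klf7 had 46.8%, and Klf12 and Klf15 differed from the rest with 71.8% and 51.2% for the sort and 6.93% and 19.5% for replicate number.

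Both libraries numbered 1 lay above the other 4 for Klf2 and below them for Klf3, Klf6 and Klf9, against 24.6% of all genes above and 25.2% below. Klf9 and Klf3 ran together over the 6 libraries (r = 0.90), as did Klf6 and Klf9 (r = 0.80), while Klf2 and Klf6 ran in opposite directions (r = -0.85). The libraries numbered 1 also had the lowest summed astrocyte and endothelial levels, given above. Mural and fibroblast genes were likewise lowest there. In order of replicate number they summed to 148, 2424 and 1126 CPM of library totals in Nanog+E-cadherin+ cells. In Nanog+E-cadherin- cells they summed to 210, 1559 and 1868 CPM. Neural stem cell and oligodendrocyte lineage sums were lowest there too, while the neuronal sum was highest. The part of cell content in these Klf values was not tested. The labels do not say what the number stands for, so a batch, an animal or a difference in culture cannot be told apart.

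Lists of related genes were read from the same fits, and of their 70 tested genes 0 passed in edgeR's test, where 3 had an unadjusted p under 0.05 with group only, against 2.67% of all genes, and 15 with the block, against 10.7%. DESeq2 called 0 of the 70 with group only, against 13 of all 13460, and 2 with the block, against 304. In limma-voom 0 of the 70 were called in both fits, against 0 and 264 of all genes. As background for the genes below whose populations did not overlap, 3.74% of all genes lay higher and 3.25% lower in this way. Among the other 7 Klf genes, 4 passed the filter and 0 passed the test in either fit. Klf16, which like Klf13 recruits Sin3, stood at 73.5, 37.0 and 44.6 CPM in Nanog+E-cadherin+ replicates 1 to 3, against 54.4, 23.4 and 35.5 CPM in Nanog+E-cadherin- replicates 1 to 3, and was higher in each library of equal number. Its blocked log2 fold change was 0.47 ± 0.18 (SE), with an unadjusted p of 0.0308 and an adjusted p of 0.412 in edgeR's test. Klf4 had a blocked log2 fold change of -0.30 ± 0.16, Klf11 one of -0.29 ± 0.20 and Klf8, which had 0 counts in Nanog+E-cadherin- replicate 3, one of 1.13 ± 1.22 (SE). Klf1, the erythroid factor, and Klf17 were below the filter and had their highest counts, 33 and 30, in Nanog+E-cadherin- replicate 2, one of the libraries rich in olfactory receptor sequence.

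The Sp factors, which share the zinc fingers and bind the same GC-rich sequences, gave 8 tested genes of 9. None passed in either fit, while 3 had an unadjusted p under 0.05 with the block, 2 higher and 1 lower. Sp9, a factor of forebrain interneurons, stood at 4.68, 3.48 and 3.40 CPM in Nanog+E-cadherin+ replicates 1 to 3, against 8.95, 18.0 and 8.50 CPM in Nanog+E-cadherin- replicates 1 to 3, with no overlap. Sp6, a factor of epithelial appendages such as teeth and hair, stood at 12.4, 8.70 and 9.01 CPM in Nanog+E-cadherin+ replicates 1 to 3, against 5.77, 1.04 and 6.30 CPM in Nanog+E-cadherin- replicates 1 to 3, again with no overlap. Their blocked log2 fold changes were -1.53 ± 0.45 and 1.46 ± 0.56 (SE), with adjusted p of 0.275 and 0.405 in edgeR's test. Sp8 did not overlap either, at 0.991, 0.681 and 1.55 CPM in Nanog+E-cadherin+ replicates 1 to 3, against 0.281, 0 and 0 CPM in Nanog+E-cadherin- replicates 1 to 3, and Sp2 overlapped, with a blocked log2 fold change of 0.45 ± 0.20 (SE).

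Among 17 cofactors and ubiquitin ligases of Klf proteins, all tested, 0 passed in either fit and the median log2 fold change was 0.03. The 3 whose populations did not overlap in CPM, all higher in Nanog+E-cadherin+ cells, were Wwp1, Smurf1 and Sin3a, against 3.74% of all genes. In the authors' TPM the populations overlapped for all 3. Wwp1, a ubiquitin ligase that targets Klf2 and Klf5, stood at 23.2, 21.9 and 20.2 CPM in Nanog+E-cadherin+ replicates 1 to 3, against 15.8, 13.8 and 13.96 CPM in Nanog+E-cadherin- replicates 1 to 3. Its blocked log2 fold change was 0.58 ± 0.24 (SE) with an adjusted p of 0.440 in edgeR's test. The acetyltransferase gene Crebbp had a blocked log2 fold change of -0.56 ± 0.24 (SE) with an adjusted p of 0.443 in edgeR's test.

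Of 11 pluripotency genes bound by Klf2, Klf4 and Klf5 in mouse embryonic stem cells, 10 were found and 6 were tested. All 6 had a fitted value above 0 (median 0.60 on the log2 scale), as did 6522 of all 13460 genes, and 0 of the 6 passed in either fit. Sall4, a zinc-finger factor of the pluripotency network, stood at 31.5, 14.7 and 13.2 CPM in Nanog+E-cadherin+ replicates 1 to 3, against 18.97, 2.60 and 4.09 CPM in Nanog+E-cadherin- replicates 1 to 3. Its blocked log2 fold change was 1.59 ± 0.38 (SE) with an adjusted p of 0.179 in edgeR's test, and in DESeq2's Wald test with the block it passed (adjusted p = 0.0117). Fbxo15 had a blocked log2 fold change of 0.81 ± 0.21 (SE) with an adjusted p of 0.228 in edgeR's test, while Mycn and Pou5f1 had 0.33 ± 0.21 and 0.31 ± 0.21 (SE). In the libraries numbered 1, 2 and 3 the log2 ratios were 0.13, 0.01 and 0.89 for Mycn. For Pou5f1 they were 0.99, -0.09 and 0.03. Those of Sall4 and Fbxo15 were above 0 in every pair. Pou5f1 is the gene of Oct4, and reads of the induced Oct4 transgene may be counted in its values.

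Immediate early genes, the class that Klf2, Klf6 and Klf10 can share, gave 17 tested genes of 18, of which 0 passed in either fit. Fitted values were above 0 for 11 of the 17, against 6522 of all 13460 genes, and the median of the 17 was 0.13 on the log2 scale. Ier2 stood at 335, 113 and 94.5 CPM in Nanog+E-cadherin+ replicates 1 to 3, against 266, 105 and 41.6 CPM in Nanog+E-cadherin- replicates 1 to 3, and like Klf2 was highest in the libraries numbered 1. Nr4a1, an orphan nuclear receptor, was likewise highest there, at 258 CPM in Nanog+E-cadherin+ replicate 1 and 203 CPM in Nanog+E-cadherin- replicate 1. Cyr61, a secreted matrix protein, was instead lowest in the libraries numbered 1, at 302, 447 and 523 CPM in Nanog+E-cadherin+ replicates 1 to 3, against 226, 428 and 349 CPM in Nanog+E-cadherin- replicates 1 to 3. Klf6 and Klf10 did not share the pattern of Klf2, Klf6 being lowest in the libraries numbered 1. Btg2 had a blocked log2 fold change of -0.35 ± 0.13 (SE) with an adjusted p of 0.407 in edgeR's test. Its populations did not overlap in CPM but overlapped in the authors' TPM.

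The glucocorticoid-induced genes, the class of Klf9 and Klf15, gave 11 tested genes of 11, with 5 fitted values above 0, a median of -0.05 on the log2 scale and 0 passing in either fit. Klf15 fitted higher in Nanog+E-cadherin+ cells, while Tsc22d3, which encodes the glucocorticoid-induced leucine zipper, was lower there. Within the Nanog+E-cadherin- libraries both were highest in replicate 2 and lowest in replicate 3. Within the Nanog+E-cadherin+ libraries they ran in opposite order, Klf15 rising from replicate 1 to 3 (5.23, 14.2 and 18.2 CPM) and Tsc22d3 falling. Tsc22d3 stood at 23.6, 18.5 and 12.1 CPM in Nanog+E-cadherin+ replicates 1 to 3, against 34.3, 41.7 and 30.7 CPM in Nanog+E-cadherin- replicates 1 to 3, with no overlap. Its blocked log2 fold change was -1.01 ± 0.24 (SE) with an adjusted p of 0.179 in edgeR's test and of 0.0382 in DESeq2's Wald test with the block. Cdkn1c, a cell cycle inhibitor, was lower in each library of equal number, with a blocked log2 fold change of -0.70 ± 0.25 (SE; adjusted p = 0.377 in edgeR's test). Mt2 and Fkbp5 had blocked log2 fold changes of 0.50 ± 0.15 and 0.29 ± 0.15 (SE), with adjusted p of 0.286 and 0.535 in edgeR's test. The 7 TGF-beta early response genes had a median log2 fold change of -0.02 (rounded), and 0 passed or had an unadjusted p under 0.05 in either fit.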

How the data were processed

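Per the submitters' processing notes, reads were processed with Bowtie and RSEM 1.2.4 on mm9. The sources used here do not give settings or strand use, and reads of antisense genes may be included. Per the file headers, the authors deposited expected counts, TPM and FPKM per gene. Expected counts were rounded and tested. The authors' TPM served for comparing genes and as an alternative, as log2(TPM + 1) and log2(TPM + 0.1). The authors' FPKM were not used.

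The test was edgeR 4.0.16 (R 4.3.3) with TMM and filterByExpr (minimum count 10, total 15). Its quasi-likelihood test had group as the only term, with Benjamini-Hochberg adjustment over all genes. SE is the fold change divided by the square root of F. DESeq2 1.42.0 and limma 3.58.1 were alternatives. Steps were tested on simulated data.

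Members, lists and the naming rule were chosen with earlier results of these data known. The rule names all 10 members, Klf4, Cdh1 and Nanog, up to 4 genes per list by calls and blocked p, and, for the 2 members of smallest blocked p, the 3 genes of highest Pearson r. Other markers and genes named as a library's highest or lowest were named after their values were seen. Tfcp2l1 and Map2 are not analysed here.

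Same-numbered libraries deviated together from their group means (r = 0.755, 0.411 and 0.483, all over 0.1, against -0.617 to 0.122 for other pairs). Nanog+E-cadherin+ replicate 2 with Nanog+E-cadherin- replicate 3 (0.122) also passed 0.1, as did Nanog+E-cadherin+ replicate 3 with Nanog+E-cadherin- replicate 2 (0.102). Deviations within a group cancel out, so a high r in some pairs lowers that of others. The replicate numbers come from the labels, which do not say what an equal number stands for. That libraries of equal number vary together comes from the values.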

Additional observations from a re-analysis of the deposited data

How the results depend on the processing

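The count of members called stayed at 0 under all 24 alternatives, and of 240 member values 207 kept their direction. Klf12 (-0.70 to -0.35) and Klf15 (0.70 to 1.96) kept it in all 24, with adjusted p of 0.487 and 0.116 or more. All 24 reuse the same 6 libraries. The populations of Klf12 did not overlap in CPM, so leaving libraries out could hardly turn its sign. The ratios of Klf15 were above 0 in all 3 pairs, so the same holds for leaving out a pair. Genes called over all genes, 0 with group only, were 41 with the replicate block (35 under library totals, 44 under DESeq2 size factors), 304 with the block in DESeq2, 264 with the block in limma-voom, 13 in DESeq2 with group only and 1 (Cdh1) without a filter. In blocked fits lacking both libraries numbered 1, 2 or 3 they were 182, 140 and 449. Genes called from the lists numbered 0 in edgeR with all libraries, group only or blocked, 4 (Sall4, Fbxo15 and Mt2 higher, Tsc22d3 lower) in edgeR's blocked fit without both libraries numbered 3, and 2 (Sall4 higher, Tsc22d3 lower) with the block in DESeq2.

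Log2 fold changes that turned sign were not called, and the cause was not tested. Klf3 was 0.004 with the replicate block, 0.009 with DESeq2 size factors, 0.014 without a filter, 0.01 and 0.018 in DESeq2 with group only and with the block, 0.024 in limma-voom with group only and 0.018 in the blocked fit under DESeq2 size factors. Klf7 was 0.398 with the replicate block, 0.358 and 0.414 in the blocked fit under library totals or DESeq2 size factors, 0.506 with the block in DESeq2, 0.815 in limma-voom with group only, and 0.103 and 0.63 on log2(TPM + 1) and log2(TPM + 0.1). Without Nanog+E-cadherin- replicates 2 and 3, Klf2 was -0.325, Klf3 0.186 and Klf7 0.787. In the blocked fit lacking both libraries numbered 1, Klf3 was 0.03, Klf7 0.896 and Klf10 0.085, without those numbered 2 Klf5 was -0.201, and without those numbered 3 Klf3 was 0.118 and Klf7 1.58. Without any single library, group only, the ranges were -0.642 to 1.346 for Klf2, -0.083 to 0.168 for Klf3, -0.155 to 0.474 for Klf5, -0.012 to 0.459 for Klf6, -1.042 to 1.565 for Klf7, -0.071 to 0.455 for Klf9, -0.296 to -0.006 for Klf10 and -0.453 to 0.014 for Klf13. Klf5 and Klf7 rest on 54 expected counts or fewer per library.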
